A study of Mus musculus with 8 samples.

Results

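The contractile genes of smooth muscle were examined in mouse hearts under pressure overload. The set was a chosen list of 8 genes, Acta2, Actg2, Myh11, Mylk, Tagln, Cnn1, Smtn and Lmod1, of the 25929 genes in the expression table, and each was found by its symbol. RNA-sequencing covered 8 libraries, 2 in each of 4 groups, and each library carries the name of its group and a number, as in WT-TAC1. The study asked how endogenous n-3 polyunsaturated fatty acids alter gene expression in the overloaded heart. WT-Sham and WT-TAC hearts came from wild-type mice labelled C57BL/6, and Fat1-Sham and Fat1-TAC hearts from transgenic littermates labelled Fat-1, which carry the C. elegans n-3 desaturase gene fat-1. All mice were 3 months old at surgery, which was transverse aortic constriction (TAC) for 8 weeks in the TAC groups and chest opening without constriction in the Sham groups. The promoter of the transgene is not given in the sources used here. The labels name ventricular tissue and the methods name whole hearts.

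In smooth muscle, actin and myosin filaments slide when myosin light chain kinase, switched on by calcium and calmodulin, phosphorylates the regulatory light chain of myosin. Calponin, transgelin, smoothelin and leiomodin bind actin filaments and adjust their assembly or their pull. In the heart these genes are known from the walls of coronary and large arteries, and several of them, Acta2 above all, are also made by activated fibroblasts and by immature heart muscle. Many are known targets of serum response factor, which binds the CArG box, together with its partner myocardin.

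Promoter sequence was read for 5 of the 8 genes, Acta2, Cnn1, Lmod1, Mylk and Smtn, from RefSeq windows on GRCm38.p6 that run from 250 bases before to 50 bases after the annotated start. Tagln, Myh11 and Actg2 had no entry. The stretches of 4 genes are shown because they hold matches to the motifs of factors known to act on smooth muscle genes, the CArG box with at most 1 letter off and CATTCC, the M-CAT core bound by TEAD factors. Capitals mark the matches, and GGAATG is CATTCC on the other strand. The Lmod1 stretch is chr1:135324563-135324806 on the plus strand, the Mylk stretch is chr16:34784700-34784920 on the plus strand and the Smtn stretch is chr11:3539324-3539542 on the minus strand, each ending at the annotated 5′ untranslated region. The Mylk and Smtn stretches lie within the span of the gene given below, so they precede a start inside the gene and not its outermost start. The Acta2 matches lie in the first exon of an Acta2 transcript in GENCODE M21, and each is printed with 10 bases on both sides, from chr19:34255504-34255529, chr19:34255438-34255467 and chr19:34255388-34255417 on the minus strand.
Lmod1: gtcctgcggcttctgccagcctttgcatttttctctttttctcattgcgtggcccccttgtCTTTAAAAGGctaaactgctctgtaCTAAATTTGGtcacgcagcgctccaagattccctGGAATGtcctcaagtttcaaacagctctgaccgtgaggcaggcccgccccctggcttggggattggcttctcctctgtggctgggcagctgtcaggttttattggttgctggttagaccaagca
Mylk: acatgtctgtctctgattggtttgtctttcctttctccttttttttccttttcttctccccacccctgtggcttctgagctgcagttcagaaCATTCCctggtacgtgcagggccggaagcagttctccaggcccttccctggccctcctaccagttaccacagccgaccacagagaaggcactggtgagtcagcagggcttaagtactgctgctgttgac
Smtn: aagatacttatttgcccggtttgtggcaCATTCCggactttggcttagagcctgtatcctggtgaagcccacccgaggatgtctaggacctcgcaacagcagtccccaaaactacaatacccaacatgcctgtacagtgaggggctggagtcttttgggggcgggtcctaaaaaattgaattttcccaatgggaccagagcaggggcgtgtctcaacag
Acta2 M-CAT core: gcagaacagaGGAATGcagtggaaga
Acta2 upstream CArG-like match: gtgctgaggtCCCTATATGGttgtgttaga
Acta2 downstream CArG-like match: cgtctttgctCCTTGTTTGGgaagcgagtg
Counted from the annotated start at 0, the CArG-like matches began at -84 and -34 in Acta2 and at -189 and -164 in Lmod1, and CATTCC began at -146 in Acta2, -130 in Lmod1, -158 in Mylk and -222 in Smtn. A CArG box with at most 1 letter off stood in 2 of the 5 windows and in 21.1% of 32851 promoter windows of the same length. An exact CArG box stood in 0 of the 5 and in 1.63% of all windows. CATTCC, on both strands, stood in 4 of the 5 and in 14.7% of all windows. The CArG box has the same letters on both strands and its matches overlapped no CATTCC match. A match describes letters in a window of 300 bases and is no evidence of binding.

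**Figure D1:**
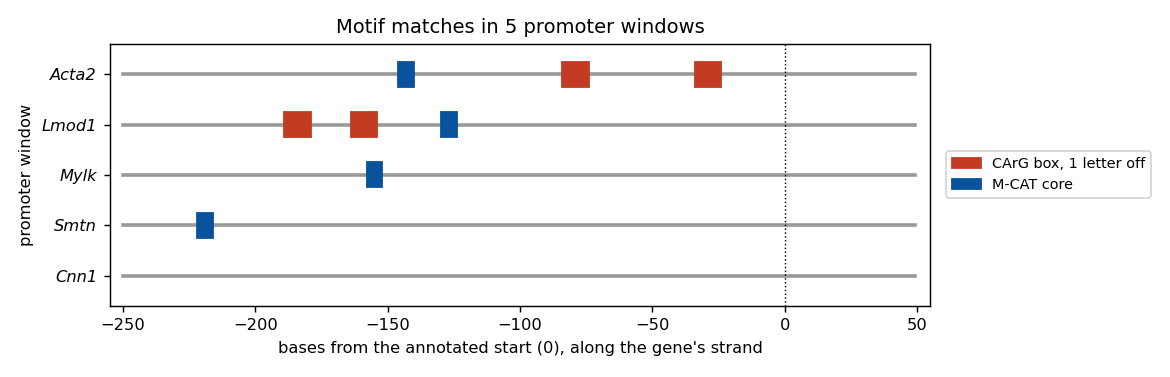
Motif matches along the RefSeq promoter windows of 5 smooth muscle genes, with bases from the annotated start on the x axis, red for a CArG box with 1 letter off and blue for the M-CAT core. Acta2 and Lmod1 hold 2 red matches each, 4 of the 5 windows hold a blue match and Cnn1 holds neither.

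Values are FPKM, fragments scaled to transcript length and library depth, so levels of different genes are compared per length. The values stood in whole fragments once a length was found for each gene, and this gave depths of 14163994 and 21218331 fragments for WT-Sham, 19828559 and 17961120 for WT-TAC, 17780695 and 19555675 for Fat1-Sham and 18683010 and 18147306 for Fat1-TAC, naming library 1 before library 2 here and below. At these depths 7 of the 8 genes had more than 3 fragments in every library, the floor used here for detection. Tagln had 1 and 14 fragments in WT-Sham, 28 and 17 in WT-TAC, 6 and 8 in Fat1-Sham and 4 and 1 in Fat1-TAC. It was therefore at or under the floor in WT-Sham1 and Fat1-TAC2.

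Several libraries stood apart before any comparison. WT-TAC1 held thymocyte mRNAs, with Cd8b1 at 276 FPKM against at most 0.23 FPKM in the other 7 libraries. WT-TAC1 and WT-TAC2 held airway mRNAs, with the secreted protein gene Bpifa1 at 600 and 1968 FPKM, Fat1-Sham1 held less of them at 10.6 FPKM, and the other 5 libraries had at most 0.44 FPKM. Cardiomyocyte mRNAs were lower in WT-TAC1, where the alpha myosin heavy chain gene Myh6 was at 7406 FPKM and between 12114 and 17694 FPKM elsewhere. Atrial mRNAs divided the libraries as well. The atrial light chain gene Myl7 was at 456 and 1945 FPKM in WT-Sham, 1035 and 1097 in WT-TAC, 602 and 9.62 in Fat1-Sham and 18.3 and 12.7 in Fat1-TAC, so both Fat1-TAC libraries lay on one side of this division and both WT-TAC libraries on the other.

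Averaged over the 8 libraries, Acta2 was the most abundant gene of the set at 114 FPKM, followed by Smtn at 74.8, Myh11 at 20.2, Cnn1 at 15.7, Mylk at 11.5, Actg2 at 4.48, Lmod1 at 3.31 and Tagln at 0.531 FPKM. The ranges over libraries overlapped between each gene and the next in this order, except between Smtn and Myh11 and between Lmod1 and Tagln. The order of the first pair was not the same in every library, since Smtn exceeded Acta2 in WT-Sham1 and in both Fat1-TAC libraries. Smtn varied least, with the highest library at 1.74 times the lowest, and the ratio was 2.68 for Mylk, 4.62 for Myh11, 4.68 for Lmod1, 5.12 for Acta2, 25.2 for Cnn1 and 28.4 for Actg2.

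The actins come first. Acta2 (ENSMUSG00000035783, chr19:34241090-34255590 on GRCm38, minus strand) encodes smooth muscle alpha actin, the thin filament protein of arterial muscle. Its levels were 47.7 and 212 FPKM in WT-Sham, 135 and 178 in WT-TAC, 125 and 120 in Fat1-Sham and 56.3 and 41.4 in Fat1-TAC. Both Fat1-TAC libraries were low, together with WT-Sham1, and the other 5 were high, so that WT-Sham spanned the levels of WT-TAC and Fat1-Sham. Actg2 (ENSMUSG00000059430, chr6:83512905-83536265, minus strand) encodes the gamma actin of visceral smooth muscle. Its levels were 1.16 and 6.81 FPKM in WT-Sham, 6.41 and 15.0 in WT-TAC, 3.45 and 1.18 in Fat1-Sham and 0.528 and 1.27 in Fat1-TAC. WT-TAC2 was the highest library, and WT-Sham1, Fat1-Sham2 and both Fat1-TAC libraries were the lowest. Actin genes are near-identical in their coding sequence, and cardiac actin Actc1 lay between 4032 and 13503 FPKM, so the values of Acta2 and Actg2 are uncertain to the extent that shared reads were assigned between them. Actc1 was highest in Fat1-Sham2, where Acta2 was 13.3 times Myh11 by FPKM, against ratios from 3.45 to 7.10 in the other 7 libraries. Myh11 was also at its lowest in Fat1-Sham2, at 9.07 FPKM, and Acta2 was at 120 FPKM there and 125 in Fat1-Sham1. An effect of shared reads on this ratio was not tested.

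Myh11 and Mylk make the motor and its switch. Myh11 (ENSMUSG00000018830, chr16:14194535-14291372, minus strand) encodes smooth muscle myosin heavy chain, a specific marker of mature smooth muscle. Its levels were 9.08 and 29.9 FPKM in WT-Sham, 30.3 and 41.9 in WT-TAC, 18.1 and 9.07 in Fat1-Sham and 11.0 and 11.98 in Fat1-TAC. The WT-TAC libraries were the highest, WT-Sham2 nearly reached them, and WT-Sham1 and Fat1-Sham2 were the lowest. Mylk (ENSMUSG00000022836, chr16:34745210-35002420, plus strand) encodes myosin light chain kinase. Its levels were 8.20 and 13.2 FPKM in WT-Sham, 13.4 and 20.5 in WT-TAC, 11.5 and 8.29 in Fat1-Sham and 7.67 and 8.94 in Fat1-TAC. The order of the libraries resembled that of Myh11 over a narrower range.

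Cnn1, Smtn, Tagln and Lmod1 encode proteins of the actin filament. Cnn1 (ENSMUSG00000001349, chr9:22099216-22109630, plus strand), calponin, restrains the myosin motor on actin. It was at 3.73 and 25.02 FPKM in WT-Sham, 30.3 and 45.7 in WT-TAC, 12.3 and 1.82 in Fat1-Sham and 3.70 and 2.66 in Fat1-TAC. Relative to Myh11 it ranged from 20.03% in Fat1-Sham2 to 109% in WT-TAC2, so it varied more steeply than the myosin. Lmod1 (ENSMUSG00000048096, chr1:135324807-135368065, plus strand), leiomodin, starts new actin filaments. It was at 1.66 and 5.03 FPKM in WT-Sham, 4.65 and 6.85 in WT-TAC, 3.49 and 1.46 in Fat1-Sham and 1.63 and 1.69 in Fat1-TAC. Lmod1 stayed between 14.1% and 19.2% of Myh11 in the 8 libraries and was the gene closest to the median profile of the set.

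Smtn and Tagln departed from this order of libraries in different ways. Smtn (ENSMUSG00000020439, chr11:3517523-3540612, minus strand), smoothelin, was at 58.4 and 74.3 FPKM in WT-Sham, 58.7 and 100.9 in WT-TAC, 65.0 and 58.5 in Fat1-Sham and 81.0 and 102 in Fat1-TAC. Both Fat1-TAC libraries were among the 3 highest, and Smtn was 1.94 times Myh11 in WT-TAC1 and 8.48 times in Fat1-TAC2. Of its exonic bases, 16.3% overlap Gm11946 on the other strand, which was at most 0.216 FPKM. Tagln (ENSMUSG00000032085, chr9:45929619-45936058, minus strand), transgelin, is known as an abundant protein of arterial smooth muscle, but was at 0.0731 and 0.683 FPKM in WT-Sham, 1.46 and 0.980 in WT-TAC, 0.349 and 0.423 in Fat1-Sham and 0.222 and 0.0570 in Fat1-TAC. The WT-TAC libraries were the highest at this low level, and in a fit without the filter its log2 fold change from WT-TAC to Fat1-TAC was -0.96 (limma adjusted p = 0.154). The antisense gene Gm48529 overlaps 62.4% of the exonic bases of Tagln and was between 0.140 and 0.995 FPKM. Pcsk7, also on the other strand, overlaps 5.4% and was between 11.2 and 30.8 FPKM. Both Pcsk7 and Tagln were highest in WT-TAC1. Since counting by strand is not stated, reads of Tagln and of these 2 genes cannot be told apart where they overlap.

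**Figure D2:**
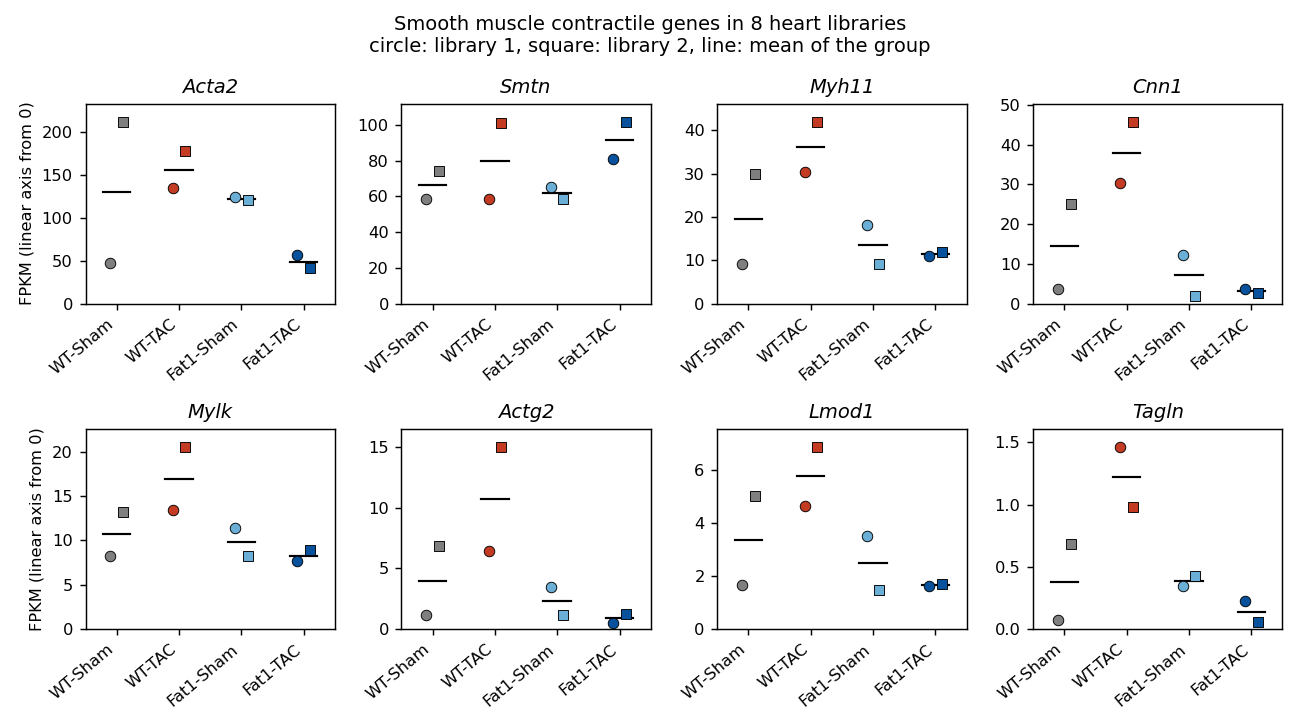
FPKM of the 8 smooth muscle genes, 1 panel each, with the groups on the x axis, circles for library 1, squares for library 2 and lines for group means on linear axes from 0. In 7 panels WT-Sham is split, with library 2 more than 1.5 times library 1, and in every panel but Smtn both WT-TAC libraries lie above both Fat1-TAC libraries.

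Replicates of the Sham groups differed, in more genes of the set in WT-Sham than in Fat1-Sham. On the log2(FPKM + 1) scale WT-Sham2 was above WT-Sham1 in 8 of 8 genes and in 73.8% of the 14442 tested genes. The difference was over 1.5-fold in 7 of the 8, whereas 8.44% of tested genes differed that far in this direction and 1.95% in the other. Fat1-Sham1 was above Fat1-Sham2 in 7 of 8 genes and in 61.1% of tested genes, over 1.5-fold in 4, against 3.78% of tested genes, and 1.30% differed that far in the other direction. WT-TAC2 was above WT-TAC1 over 1.5-fold in 2 genes, against 8.79%, and WT-TAC1 above WT-TAC2 in 0, against 33.9%. In Fat1-TAC 0 genes of the set differed over 1.5-fold, against 1.45% of tested genes higher in library 1 and 3.88% higher in library 2. The median of the centred profiles was -0.71 and 0.69 in WT-Sham, 0.64 and 0.93 in WT-TAC, 0.11 and -0.51 in Fat1-Sham and -0.59 and -0.52 in Fat1-TAC, each as a log2 difference from the mean of the gene over 8 libraries. The set was thus high in WT-TAC and WT-Sham2, intermediate in Fat1-Sham1 and low in WT-Sham1, Fat1-Sham2 and Fat1-TAC.

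Expression was compared with limma on log2(FPKM + 1) for the 14442 genes that reached 1 FPKM in 2 or more libraries. Differentially expressed genes (DEGs) had to pass an adjusted p of 0.1 by Benjamini-Hochberg and a fold change of 1.5 up or down. The filter on low values kept 7 of the 8 smooth muscle genes and left out Tagln. With 2 libraries against 2, the smallest two-sided p of an exact permutation test for 1 gene is 0.33. In these bulk libraries fewer smooth muscle cells and less RNA per cell cannot be told apart.

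Between Fat1-TAC and WT-TAC, the levels of 6 of the 7 tested genes lay lower in both Fat1-TAC libraries than in both WT-TAC libraries. The group means were 3.18 ± 0.739 against 38.0 ± 10.9 FPKM (SD, n = 2) for Cnn1, 48.8 ± 10.5 against 156 ± 30.7 FPKM for Acta2 and 11.5 ± 0.717 against 36.1 ± 8.22 FPKM for Myh11. Groups without overlap were found for 57.1% of all tested genes in this direction and 9.33% in the other. Limma called 1.39% of tested genes down and 0.0346% up, and 0 of the 7 smooth muscle genes in either direction. The log2 fold change was -3.20 for Cnn1 (SE 0.91, limma adjusted p = 0.156). It was -2.55 for Actg2 (SE 0.68, limma adjusted p = 0.146). For Acta2, Myh11, Lmod1 and Mylk it was -1.66, -1.56, -1.33 and -0.92, all at a limma adjusted p of 0.163, and for Smtn 0.23 at 0.526. Before adjustment, 6 of the 7 were lower at p under 0.05 and over 1.5-fold, against 23.5% of all tested genes lower and 1.72% higher, and limma-voom on the recovered fragments called 0 of the 7. The median log2 fold change was -1.56 in the set and -0.40 over all tested genes, and taken relative to the latter Cnn1 stood at -2.80, Mylk at -0.52 and Smtn at 0.64.

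This comparison depended on scaling and on single libraries. Scaled by the median of ratios, Cnn1 stood at -2.81, Acta2 at -1.24, Myh11 at -1.15, Lmod1 at -0.997 and Mylk at -0.53, with limma adjusted p from 0.241 to 0.331, and Smtn at 0.66. With quantile normalization, Myh11 stood at -1.13, Lmod1 at -0.80 and Mylk at -0.42, at limma adjusted p of 0.273, 0.315 and 0.473, and both settings called 0 genes of the set. The calls over all tested genes fell from 206 to 20 and 14 under these settings and to 33 with a pseudocount of 0.1 FPKM. Scaled to cardiomyocyte genes, which were low in WT-TAC1, all smooth muscle genes but Smtn were called down, Tagln included, at log2 fold changes from -3.84 for Cnn1 to -1.29 for Tagln, and Smtn turned to -0.47. Tagln entered this fit only because both WT-TAC libraries then reached 1 FPKM, so the filter itself favoured its call as down. Under this scaling limma called 6685 genes in all. Leaving out WT-TAC1, with its thymocyte mRNAs, gave log2 fold changes of -3.49 for Cnn1, -1.86 for Acta2 and -1.78 for Myh11, and turned Smtn to -0.15, with 0 genes of the set called by limma. Leaving out WT-TAC2 gave 4 calls, Cnn1, Actg2 and Mylk down and Smtn up at 0.62 (limma adjusted p = 0.0280), among 7523 genes called in all. Both WT-TAC libraries held atrial and airway mRNAs and both Fat1-TAC libraries held little of either, so the transgene and these differences in tissue cannot be told apart here.

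Between WT-TAC and WT-Sham all 7 log2 fold changes were above 0, as were those of 79.3% of tested genes, though Smtn turned to -0.20 when scaled by the median of ratios, and limma called 0 of the 7, against 0.921% of tested genes up and 0.0138% down. The largest were 1.78 for Cnn1 (SE 0.91, limma adjusted p = 0.214) and 1.41 for Actg2 (SE 0.68, limma adjusted p = 0.20), followed by 1.06 for Myh11, 0.73 for Lmod1, 0.62 for Mylk, 0.61 for Acta2 and 0.22 for Smtn. The set had a median of 0.73 and all tested genes a median of 0.39. Cnn1, Myh11 and Mylk exceeded both WT-Sham libraries in both of WT-TAC, as did 52.5% of tested genes, with 7.09% lower, while Acta2, Actg2, Smtn and Lmod1 overlapped. Before adjustment, 0 genes of the set passed p under 0.05 and 1.5-fold, against 22.7% of tested genes higher and 1.11% lower in WT-TAC. The values turned on which WT-Sham library was kept. Without WT-Sham1 the log2 fold change was 0.25 for Myh11, 0.55 for Cnn1 and -0.45 for Acta2, and without WT-Sham2 it was 1.86, 3.01 and 1.68, with 0 limma calls in the set either way. Without WT-TAC1 Cnn1 stood at 2.07, Myh11 at 1.28 and Acta2 at 0.81.

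In the fat-1 mice, TAC against Sham gave log2 fold changes of -1.33 for Acta2 (SE 0.60), -0.74 for Actg2, -0.56 for Cnn1, -0.32 for Lmod1, -0.21 for Mylk, -0.16 for Myh11 and 0.55 for Smtn (SE 0.27), each at a limma adjusted p of 1. Acta2 was lower and Smtn higher in both Fat1-TAC libraries than in both Fat1-Sham libraries, against 21.5% and 26.8% of tested genes, and the other 5 overlapped. Before adjustment, 0 genes of the set passed p under 0.05 and 1.5-fold, against 1.33% of tested genes higher and 0.533% lower, and limma called 0.00692% of tested genes up and 0.00% down. Fat1-Sham2 and both Fat1-TAC libraries held little atrial mRNA, and without Fat1-Sham1 the log2 fold changes were 0.31 for Myh11, 0.11 for Lmod1, 0.56 for Cnn1 and -1.30 for Acta2. Between Fat1-Sham and WT-Sham the estimates lay between -0.86 for Cnn1 and 0.28 for Acta2, and limma called 0.00% of tested genes and 0 of the set. All 7 genes overlapped, where 15.5% of tested genes were higher and 16.5% lower without overlap, and before adjustment 0 of the set passed, against 0.201% of tested genes higher and 0.692% lower.

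The test of whether TAC acted differently in the 2 genotypes gave interactions of -2.35 for Cnn1 (SE 1.29), -2.15 for Actg2 (SE 0.96) and -1.94 for Acta2 (SE 0.84) on the log2 scale. Without WT-Sham1 they were -1.12, -1.22 and -0.88 and without WT-Sham2 -3.58, -3.08 and -3.00, and without Fat1-Sham1 that of Cnn1 was -1.23. The limma adjusted p was 0.495 for 6 of the genes and 0.637 for Smtn, whose interaction was 0.33. Limma called 0 of the 7, against 0.0623% of tested genes down and 0.00692% up. Before adjustment 0 passed, against 6.38% of tested genes lower and 0.609% higher. The 5 comparisons share libraries and are not independent of each other.

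**Figure D3:**
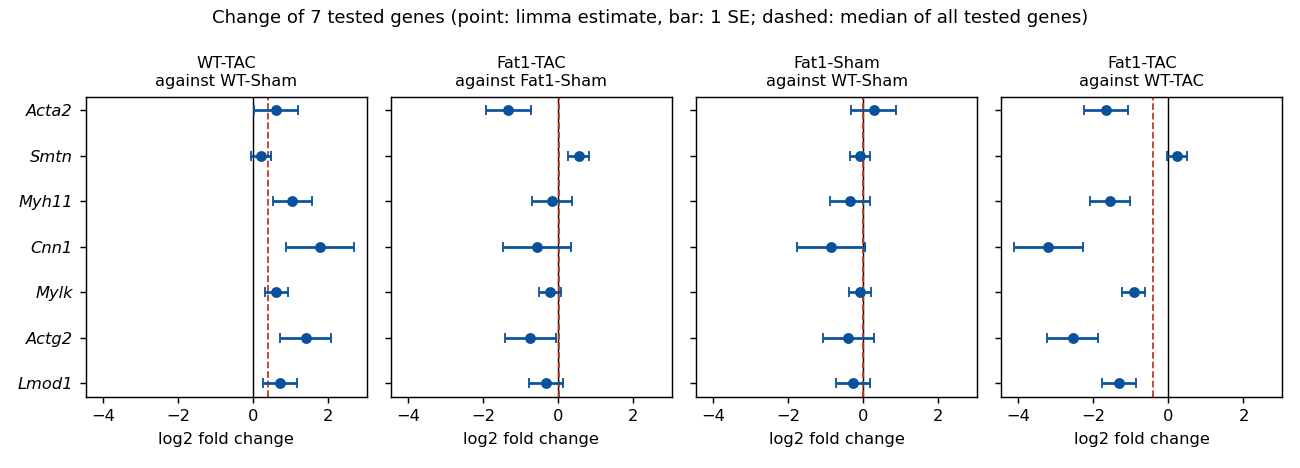
Log2 fold changes on the log2(FPKM + 1) scale for the 7 tested smooth muscle genes in 4 comparisons, with points for limma estimates, bars for 1 SE and a dashed line at the median of all tested genes. In Fat1-TAC against WT-TAC the points of 6 genes lie left of the dashed line at -0.40 and Smtn lies right of 0.

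Other genes of the contractile apparatus were taken from lists. Of 13 further filament and dense body genes, 9 had log2 fold changes below 0 between Fat1-TAC and WT-TAC and 4 above, against 78.0% of all tested genes below 0, with a median of -0.89. Limma called 0 of the 13, while 7 were lower at p under 0.05 and 1.5-fold before adjustment, against 23.5% of all tested genes. The lowest was Actn1, alpha actinin 1 of dense bodies and adhesions, at -1.85 (SE 0.40, limma adjusted p = 0.118), and the highest was Tpm1, a tropomyosin abundant in heart muscle, at 0.58. The regulatory light chain Myl9 and the tropomyosin Tpm2, chosen after their values were seen, followed the set across libraries. Myl9 was at 58.9 and 244 FPKM in WT-Sham, 179 and 228 in WT-TAC, 117 and 52.8 in Fat1-Sham and 61.6 and 62.9 in Fat1-TAC. From WT-TAC to Fat1-TAC its log2 fold change was -1.68 (SE 0.63, limma adjusted p = 0.164).

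Of 13 genes that set light chain phosphorylation and calcium entry, 12 were tested and limma called 0, with a median of -0.47 between Fat1-TAC and WT-TAC and 2 that were lower before adjustment, against the same 23.5%. Ppp1r12a, which targets myosin phosphatase, was lowest at -0.90 (SE 0.22, limma adjusted p = 0.138), and the calcium channel gene Cacna1c, also of heart muscle, was highest at 0.49. The most abundant, the phosphatase subunit Ppp1cb, stood at 0.07. Of 14 genes of serum response factor and its control, limma again called 0, with a median of -0.19 and 4 that were lower before adjustment, again against 23.5%. Myocd, the myocardin gene, was at 13.6 and 16.1 FPKM in WT-Sham, 9.53 and 17.0 in WT-TAC, 16.6 and 21.6 in Fat1-Sham and 16.4 and 16.8 in Fat1-TAC. It did not follow the set, and its log2 fold change from WT-TAC to Fat1-TAC was 0.35 (SE 0.28, limma adjusted p = 0.356). Mrtfa, a cofactor of serum response factor that responds to actin, was lowest at -1.22 (SE 0.48, limma adjusted p = 0.166), and its level of 22.5 FPKM in WT-TAC1 stood against 2.99 to 6.48 FPKM in the other 7 libraries. The most abundant, Tead1, a factor that binds CATTCC, stood at 0.32.

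Among 6 actin genes, limma called 0 between Fat1-TAC and WT-TAC. Acta1, skeletal alpha actin, was highest at 1.05 (SE 0.48, limma adjusted p = 0.178) and Actc1 stood at 0.60, while the smooth muscle actins Actg2 and Acta2 were the lowest of the family. Actb and Actg1 were lower in both Fat1-TAC libraries as well. Actb was at 1628 and 552 FPKM in WT-TAC and 374 in both Fat1-TAC libraries. Actg1 was at 634 and 372 FPKM in WT-TAC and 245 and 239 in Fat1-TAC. Before adjustment, 4 of the 6 actin genes were lower at p under 0.05 and 1.5-fold, against 23.5% of all tested genes. Of these 4, Acta2 and Actg2 belong to the set and were already counted there, and Actb and Actg1 do not.

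Cell types that share these genes were followed by their markers. All 9 pericyte genes were tested and limma called 0. The most abundant, Rgs5, was at 205 and 171 FPKM in WT-Sham, 125 and 199 in WT-TAC, 231 and 190 in Fat1-Sham and 257 and 214 in Fat1-TAC. Pericyte genes summed to between 261 FPKM in WT-TAC1 and 453 in Fat1-TAC1, with a median log2 fold change of 0.48 from WT-TAC to Fat1-TAC, and did not follow the smooth muscle genes. The value of 0.48 rested largely on WT-TAC1. Centred medians of the list were -0.51 in WT-TAC1 and 0.03 in WT-TAC2, against 0.17 and 0.23 in Fat1-TAC. Abcc9, a potassium channel subunit, was highest at 0.64 and Mcam lowest at -0.34.

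Genes of the elastic artery wall were followed next. Of 7, limma called 1 down between Fat1-TAC and WT-TAC, Eln, which encodes elastin, at -1.22 (SE 0.24, limma adjusted p = 0.0997), and 6 of 7 were lower in both libraries, against 57.1% of all tested genes. The call of Eln held in 2 of 18 alternative settings, at log2 fold changes from -1.90 to -0.78 and limma adjusted p from 0.00537 to 0.469. Eln was at 29.3 and 36.4 FPKM in WT-Sham, 31.3 and 27.5 in WT-TAC, 37.0 and 23.5 in Fat1-Sham and 12.95 and 11.2 in Fat1-TAC. Unlike the contractile genes, it was similar in WT-Sham1, WT-Sham2 and WT-TAC and low in both Fat1-TAC libraries. Itga8, an integrin subunit of smooth muscle, was lowest at -2.69 (SE 0.97, limma adjusted p = 0.163), with 2.80 and 27.3 FPKM in WT-Sham, 20.4 and 28.3 in WT-TAC, 12.04 and 2.08 in Fat1-Sham and 2.66 and 3.13 in Fat1-TAC, and Fbn1, fibrillin, was highest at 0.06. Of 6 tested genes of activated fibroblasts limma called 4 down, Ccn2, Fn1, Col1a2 and Col3a1, against 1.39% of all tested genes. Col3a1, a fibrillar collagen and the most abundant, was at -1.10 (SE 0.22, limma adjusted p = 0.0997). The calls of Col3a1 and Fn1 also held in 2 of 18 alternative settings, that of Col1a2 in 5 and that of Ccn2 in 9. All 6 were lower in both Fat1-TAC libraries without overlap, against 57.1%. Col3a1 was at 149 and 234 FPKM in WT-Sham, 243 and 223 in WT-TAC, 143 and 132 in Fat1-Sham and 103 and 113 in Fat1-TAC.

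Markers of other tissues were followed in the same libraries. The 4 atrial genes summed to 926 and 3542 FPKM in WT-Sham, 2156 and 2214 in WT-TAC, 1194 and 16.8 in Fat1-Sham and 39.1 and 24.5 in Fat1-TAC. By these sums and the median of the set, atrial and smooth muscle genes were both higher in WT-Sham2 than in WT-Sham1, in Fat1-Sham1 than in Fat1-Sham2 and in WT-TAC than in Fat1-TAC, but WT-Sham1 held atrial mRNA with smooth muscle mRNA as low as in Fat1-TAC. The atrial growth factor gene Bmp10 went the other way in WT-Sham, with 8.63 FPKM in WT-Sham1 and 0.073 FPKM in WT-Sham2. All 4 atrial genes were lower in both Fat1-TAC libraries than in both WT-TAC libraries, against 57.1% of all tested genes, Myl7 at -6.03 (SE 1.65, limma adjusted p = 0.150). The 8 airway genes summed to 1528 and 4037 FPKM in WT-TAC, 51.8 FPKM in Fat1-Sham1 and at most 4.14 FPKM elsewhere, so WT-Sham2 had high smooth muscle genes with airway mRNA near 0. Scgb3a2 was at 0 in 5 libraries and Tekt1 in 4. Of 6 fibroblast, 8 endothelial, 10 cardiomyocyte and 6 adipocyte genes limma called 0 between Fat1-TAC and WT-TAC, with median log2 fold changes of -0.46, 0.32, 0.71 and -3.65. The adipocyte value rested largely on Fat1-TAC1, with a sum of 6.23 FPKM, against 295 in Fat1-TAC2 and 612 and 792 in WT-TAC. For cardiomyocyte and endothelial genes WT-TAC1 stood apart, at centred medians of -0.90 and -0.43, against -0.05 and 0.04 in WT-TAC2. Thymocyte genes summed to 891 FPKM in WT-TAC1 and at most 0.537 FPKM elsewhere. The 5 epithelial genes summed to 249.9 and 48.3 FPKM in WT-TAC and at most 4.68 FPKM elsewhere. From WT-TAC to Fat1-TAC limma called down 6 of 7 tested airway, 3 of 5 epithelial and 1 of 4 alveolar genes. It also called down 1 of 3 tested cartilage genes and 1 of 4 mesothelial genes, against 1.39% of all tested genes. Of the tested genes of these lists, Foxj1, Cdh1, Epcam, Krt5, Sftpd and Acan reached 1 FPKM in WT-TAC only. The filter thus admitted them through the group where they were high, so their direction was not free and the counts are not evidence of a change. Macrophage, B or plasma cell and skeletal muscle genes had 0 calls, with medians of -0.62, -1.18 and -2.42. Of 6 skeletal muscle genes 3 were tested, and the 6 summed to 109 and 19.4 FPKM in WT-TAC and 10.9 and 13.9 in Fat1-TAC. B or plasma cell genes summed to 80.2 and 38.9 FPKM in WT-TAC and 1.86 and 32.5 in Fat1-TAC, so replicates of these 2 lists differed widely. The mesothelial median was -1.26. By mean over the 8 libraries, the most abundant genes of the other lists were Krt18 of epithelium, Sftpc of the alveolus and Comp of cartilage. They were also Upk3b of mesothelium, C1qa of macrophages, Jchain of B or plasma cells and Mybpc2 of skeletal muscle. For fibroblasts, endothelium and adipocytes they were Dcn, Cdh5 and Cfd. The order differed between libraries, and in WT-TAC2 Sftpc was at 0.138 FPKM and Sftpa1 at 3.52. Genes at 0 in 1 library or more were also Scgb1a1, Bpifa1, Cyp2f2, Foxj1, Sftpc, Sftpb, Sftpa1, Sftpd, Epcam, Krt5, Col2a1, Matn1, Col9a1, Hapln1, Rag1, Cd3e, Ptcra, Dntt, Cd8b1, Myh1 and Myh4. The part of atrial, vascular, airway and fibroblast tissue in the smooth muscle values was not tested.

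**Figure D4:**
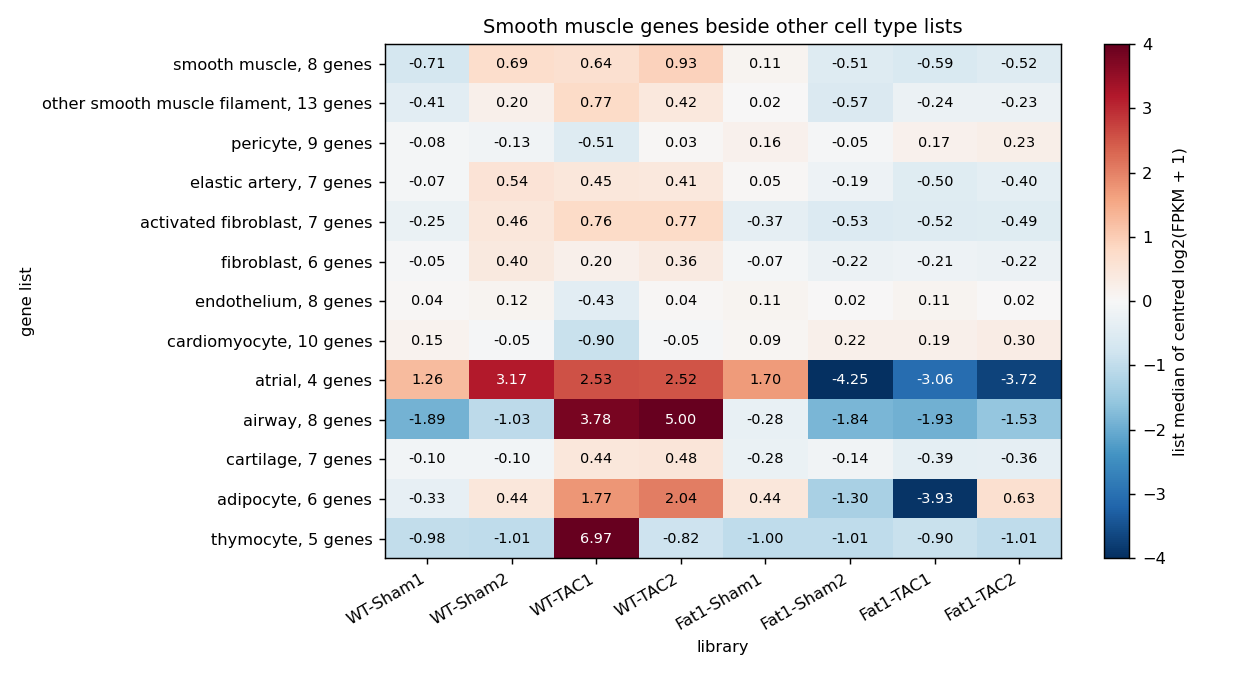
Median over each gene list of log2(FPKM + 1) after subtracting the mean of each gene over 8 libraries, with libraries on the x axis and lists on the y axis, red above and blue below the mean, and colour stopping at 4. The smooth muscle row runs from -0.71 in WT-Sham1 to 0.93 in WT-TAC2, the pericyte row stays between -0.51 and 0.23, and the atrial row lies between -4.25 and -3.06 in Fat1-Sham2 and both Fat1-TAC libraries.

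The genes outside the lists whose profile over 8 libraries lay nearest to the median profile of the set, among 9364 genes at a mean of 5 FPKM or more, were Slit3, Col14a1, Cntfr, Sod3 and Peg3. Likeness was the root mean square difference of centred log2 values, which was 0.16 for Slit3, 0.16 for Col14a1, 0.17 for Cntfr, 0.18 for Sod3 and 0.20 for Peg3, against a median of 0.57 over all tested genes. Within the set it was 0.098 for Lmod1, 0.18 for Myh11, 0.26 for Mylk, 0.34 for Tagln, 0.44 for Acta2, 0.52 for Actg2, 0.65 for Smtn and 0.88 for Cnn1. Slit3, a secreted guidance protein, was at 12.6 and 23.7 FPKM in WT-Sham, 27.4 and 32.4 in WT-TAC, 16.2 and 11.3 in Fat1-Sham and 10.1 and 12.96 in Fat1-TAC. Smtn lay farther from the profile of the set than the median tested gene, as did Cnn1, whose swings had the same direction as the set but were larger.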

How the data were processed

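RNA-sequencing of 8 mouse heart libraries was analysed, 2 in each of 4 groups taken from the sample labels. The authors deposited FPKM values for 25929 genes after quality control of the reads and mapping, for which the submitters' processing notes name HISAT2 and the builds mm10 and GRCm38. The counting program, its strand setting and the annotation are not given in the sources used here. Symbols were given for 25852 genes and 4 blank lines were removed. Depth was worked out from the FPKM values, which were whole numbers of fragments within 0.05 fragments at a single length for all genes but 1, and gave totals from 14163994 to 21218331. Reads carried no molecular identifiers and may be PCR copies, so the floor of 3 fragments covers counting error only.

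The table holds no counts, so limma 3.58.1 in R 4.3.3 (lmFit, eBayes with trend) was run on log2(FPKM + 1), which understates changes of low genes, with 4 group means, for the 14442 genes that reached 1 FPKM in 2 or more libraries, and adjusted by Benjamini-Hochberg over all of them. The labels call the samples independent, and standard errors are those of limma. The fit was tested on simulated data with a smaller spread between replicates than that of most smooth muscle genes in WT-Sham, so the test does not describe its power for them. The members, the 22 lists with 156 listed genes and the rules were chosen with earlier results of these data known. Genes named besides the members are, in each list of the apparatus, of pericytes and of elastic artery, the called, highest, lowest and most abundant, in other lists the most abundant and those at 0 in a library, and the 5 of nearest profile. Bmp10, Ccn2, Fn1, Col1a2, Myl9, Tpm2, Actb and Actg1 were named after their values were seen. Mkl1 and Ctgf appear under newer symbols, Mrtfa and Ccn2, and Cthrc1 was not found. Promoters are from RefSeq (GRCm38.p6) and gene positions and overlaps from GENCODE M21. Alternatives were another pseudocount, filter, scaling or test, the replicate block and each library left out.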

Additional observations from a re-analysis of the deposited data

Results flagged for a closer look

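Scgb3a2, a secretoglobin of airway epithelium, was called in the interaction of genotype and surgery, with a fitted log2 value of -8.13 (SE 0.90, limma adjusted p = 0.0659).
Scgb3a2 was at 92.9 and 219 FPKM in WT-TAC and 2.82 FPKM in Fat1-Sham1 and at 0 in the other 5 libraries, which include both of WT-Sham and both of Fat1-TAC, so the fitted value depends on the pseudocount. The libraries with Scgb3a2 are those that held airway mRNAs. With a pseudocount of 0.1 the fitted value was -12.9 (limma adjusted p = 0.244), so its size has no fixed meaning. The call of Scgb3a2 held in 5 of 17 alternative settings. Limma called 10 genes in the interaction, and 0 with a pseudocount of 0.1, scaling by the median of ratios or quantile normalization.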

How the results depend on the processing

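Under 18 alternatives, 578 of 613 log2 fold changes of the smooth muscle genes kept their direction and their side of the threshold, 12 passed it anew and 23 changed sign, of which 8 were of Smtn and 12 of Fat1-Sham against WT-Sham. Between Fat1-TAC and WT-TAC, scaling to cardiomyocyte genes, which also brought Tagln past the filter through WT-TAC alone, gave 7 calls among 8 tested, all but Smtn, with Acta2 at -2.37 and Cnn1 at -3.84 (limma adjusted p = 0.0994), among 6685 genes called in all. A fit of only these groups gave 1, Cnn1 (limma adjusted p = 0.0931), among 41. The cause was not tested. Outside the set, the call of Eln held when scaled to cardiomyocyte genes and without WT-TAC2, and the block took it to a limma adjusted p of 0.165. Smtn changed sign to -0.20 with the median of ratios and -0.073 with quantile normalization in WT-TAC against WT-Sham, and to -0.47 (Fat1-TAC against WT-TAC) and -0.28 (interaction) when scaled to cardiomyocyte genes. With 1 library left out, which assumes that the lone library varies like the other groups, the calls in the set ranged from 0 to 4 in Fat1-TAC against WT-TAC and from 0 to 1, Smtn, in the interaction, where leaving out WT-TAC2 gave the higher count. The log2 fold changes that changed sign ranged, in WT-TAC against WT-Sham, from -0.45 to 1.68 for Acta2 and -0.16 to 0.61 for Smtn. In Fat1-TAC against Fat1-Sham they ranged from -0.62 to 0.31 for Myh11, -1.69 to 0.56 for Cnn1 and -0.76 to 0.11 for Lmod1. In Fat1-Sham against WT-Sham they ranged from -0.79 to 1.34 for Acta2, -1.33 to 0.53 for Actg2, -1.15 to 0.46 for Myh11, -0.40 to 0.23 for Mylk, -2.09 to 0.37 for Cnn1, -0.26 to 0.078 for Smtn and -0.86 to 0.32 for Lmod1. Smtn ranged from -0.15 to 0.62 in Fat1-TAC against WT-TAC and from -0.059 to 0.71 in the interaction. Calls over all tested genes ranged from 5 to 7523 in Fat1-TAC against WT-TAC, from 0 to 7065 in WT-TAC against WT-Sham and from 0 to 6398 in the interaction, with 7523 and 6398 reached without WT-TAC2. Deviations of same-numbered libraries correlated between -0.135 and 0.0236, so no strong shared deviation was seen. With 2 libraries a group, this cannot show whether same-numbered libraries had more than a number in common. The replicate block called 0 of the set in each comparison and 52 genes in all in Fat1-TAC against WT-TAC, against 206 without it.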
